A study of Homo sapiens with 4 samples.

Results

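Splicing factors of 5 gene families were followed across 4 RNA-seq libraries: the SR proteins (SRSF genes), the U2 auxiliary factor (U2AF genes), the SF3A and SF3B subunits, the small nuclear ribonucleoprotein proteins (SNRP genes) and the heterogeneous nuclear ribonucleoproteins (HNRNP genes). Members were all genes whose symbol begins with SRSF, SF3A or SF3B and a digit, with HNRNP or with SNRP, together with U2AF1 and U2AF2. This gave 60 of the 23228 genes in the files: 12 SRSF, 2 U2AF, 9 SF3A or SF3B, 13 SNRP and 24 HNRNP genes. The cells were A673, a line from an Ewing sarcoma with the fusion gene EWSR1-FLI1. With RNAiMAX they received either a scramble siRNA, called control below, or one against the atypical cadherin FAT4. Sampling followed at 24 h or 48 h. Each of the 4 combinations of siRNA and time was 1 library of 1 line grown in DMEM with fetal bovine serum, so no value has a replicate culture behind it. The p-values below come from a fit over the 4 libraries and weigh each mean change against how far the libraries depart from additive effects of siRNA and time, pooled over genes. They hold no spread between cultures.

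Introns are removed by the spliceosome, which assembles on each intron from small nuclear ribonucleoproteins (snRNPs). SR proteins bind exons and recruit the machinery, U2AF and the SF3 complexes of the U2 snRNP mark the 3′ splice site and branch point, and Sm proteins form a ring on the spliceosomal RNAs. HnRNP proteins coat nascent transcripts and often oppose the inclusion of exons. Many of these genes control their own transcripts through exons whose inclusion leads to decay of the RNA, and levels per gene as counted here do not separate such transcripts from productive ones.

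Gene counts summed to between 15196813 and 22625833 per library. FAT4 itself was at 165 and 149 CPM (read counts per 1000000 gene counts, scaled by TMM) in the controls and at 71.8 and 60.2 CPM with its siRNA, at 24 h and 48 h in each case (log2 fold change -1.25, SE 0.0978, adjusted p = 8.65e-34 by edgeR). Of 11 Ewing sarcoma marker genes, 10 had counts in every library, and CD99 was listed at 0. That 0 covers uniquely placed reads only, so it does not show that CD99 was absent. Of 11 markers of epithelial, immune and endothelial cells, 10 stayed at or below 0.474 CPM, with KRT5 and CD3E at 0, and the macrophage marker CD68 was at 9.74 to 17.3 CPM. The nuclear RNAs MALAT1 and NEAT1, and SNHG1 and GAS5, which host small nucleolar RNAs, were listed as a check on RNA preparation. In this order they rose with the FAT4 siRNA by 0.29, 0.45, 0.31 and 0.25 on the log2 scale (4 of 4 on the list, against 11.9% of all genes called higher by edgeR). DESeq2 and the edgeR fit with GC and length correction each called 1 of the 4, NEAT1. Their part in the changes of the splicing genes was not tested. In bulk RNA of this kind, fewer cells expressing a gene and less RNA per cell cannot be told apart.

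Of the 60 members, 53 had enough counts to be tested. HNRNPA1P10, HNRNPCL1, HNRNPUL2-BSCL2, SNRPD2P2 and SNRPN had 0 counts in all 4 libraries. SNURF, which shares its transcript with SNRPN, also had 0 counts in all 4. HNRNPH2 had 1 to 7 counts and the pseudogene HNRNPA3P1 had 3 to 10, too few to test. The joint gene RPL36A-HNRNPH2 had 0 counts in all 4 libraries. Reads on more than 1 gene entered no gene's count, so low or 0 counts of overlapping genes need not mean low expression. Whether this lowered the counts of HNRNPH2 or SNRPN was not tested. The members together took 1.63% to 1.81% of all gene counts. HNRNP genes held the largest part, with 0.906% to 1.003%, and SRSF genes 0.318% to 0.362%. The label of the group held for these genes, apart from the pseudogene HNRNPKP3, which passed the filter at 1.30 to 2.37 CPM. The hnRNP genes HNRPDL and HNRPLL carry older symbols in the files and fell outside the rule. HNRPDL, a paralogue of HNRNPD, was at 284, 270.6, 335 and 329.5 CPM, in the library order used throughout for 4 values: the 24 h control, the 48 h control, then FAT4 siRNA at 24 h and 48 h. Its log2 fold change with the siRNA was 0.26 (edgeR adjusted p = 0.0180, DESeq2 adjusted p = 0.109). HNRPLL was at 69.9, 83.2, 82.0 and 74.15 CPM, with a log2 fold change of 0.03 (edgeR adjusted p = 0.854). Its siRNA ratio was 1.17 at 24 h and 0.891 at 48 h.

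Levels between genes were compared per kilobase of the longest annotated coding transcript, which may not be the one expressed. On this scale HNRNPA2B1, a core hnRNP protein that packages nascent RNA, had the highest level, with a mean of 732 CPM per kb over the 4 libraries. HNRNPM and HNRNPU followed among the hnRNPs at 204 and 180.5 CPM per kb. SNRPB, which encodes the Sm proteins B and B′, led the SNRP genes at 323 CPM per kb, ahead of SNRPD2 at 180.1 and SNRPC, a U1 snRNP protein, at 127. SRSF1, the classical SR protein ASF/SF2, stood at 240.2 CPM per kb, followed by SRSF2 at 173 and SRSF9 at 150.2. SF3B2 at 185, SF3B5 at 96.5 and SF3B1 at 88.1 CPM per kb led the SF3 genes. The large U2AF subunit U2AF2, which binds the polypyrimidine tract, was at 123 and the small subunit U2AF1, which contacts the AG of the 3′ splice site, at 89.7 CPM per kb. SRSF12 (3.55 CPM per kb) and SRSF8 (9.75) were the lowest SR genes in this line. No spread between cultures stands behind this order, so neighbours in it cannot be ranked firmly.

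**Figure D1:**
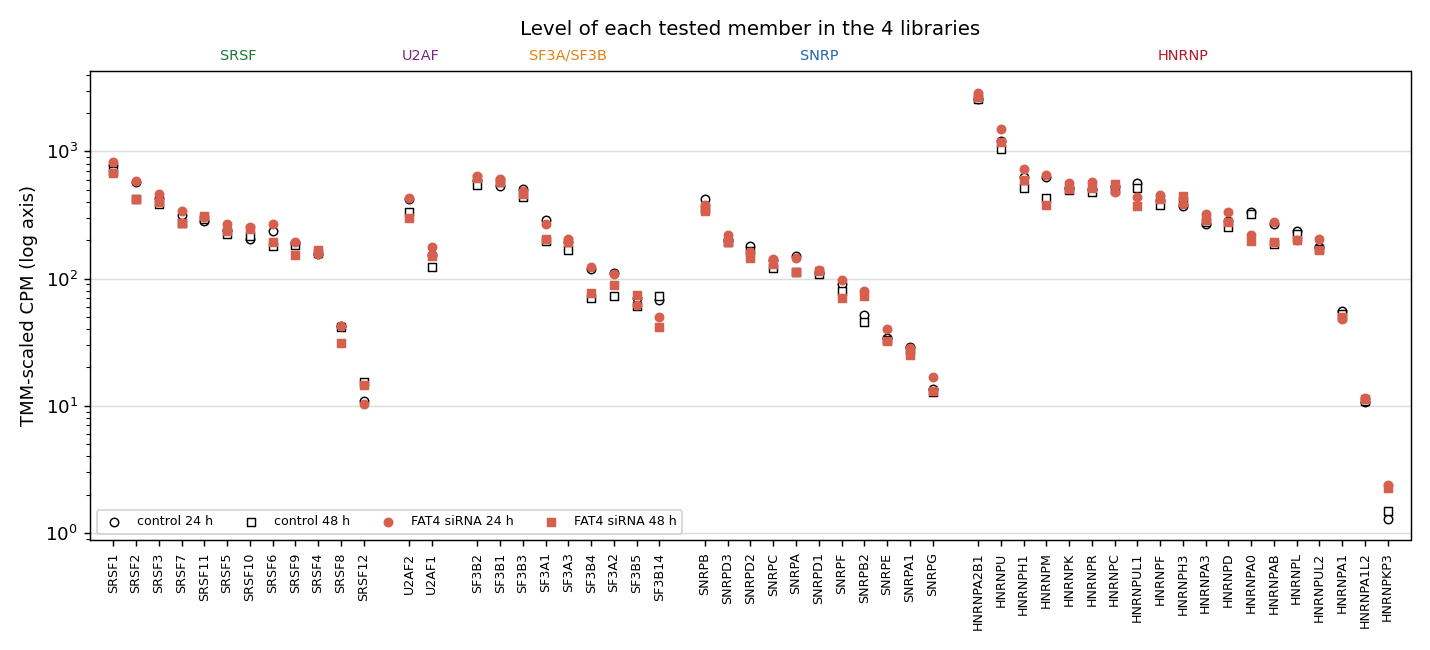
TMM-scaled CPM on a log axis for the 53 tested members, ordered by mean level within each family; open symbols are control and filled symbols FAT4 siRNA libraries, circles 24 h and squares 48 h. Levels ran from 1.30 CPM for HNRNPKP3 to 2905 CPM for HNRNPA2B1, and the 4 libraries of a gene lay close together for most members.

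For several members the count is uncertain because near-identical copies exist in the genome. RefSeq lists 75 pseudogenes named for HNRNPA1, 20 each for SNRPC and SNRPG, 17 for HNRNPA3 and 11 for SNRPE. For every 100 reads with a unique place, 43.1 to 44.6 alignments had several. HNRNPA1, an abundant hnRNP protein in most dividing cells, was listed at 56.0, 52.4, 47.7 and 49.7 CPM. SNRPG and SNRPE, both subunits of the Sm ring, were at 12.8 to 16.8 and 32.5 to 39.9 CPM. Comparisons between libraries for these genes rest on the reads that were placed uniquely.

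The first comparison asked which members had other levels under FAT4 siRNA than under control, over both times. SNRPB2, SRSF10, U2AF1 and HNRNPU rose, and HNRNPA0, SF3B14 and HNRNPUL1 fell, while 46 of the 53 tested members did not pass the test. The fitted fold change was 1.57 for SNRPB2, 0.641 for HNRNPA0, 0.649 for SF3B14 and 0.749 for HNRNPUL1, and lay between 1.18 and 1.19 for the other 3. The edgeR quasi-likelihood fit called 7 of 53 members (13.2%), against 25.9% of the 13712 genes tested. It called 4 members higher (7.55%, against 11.9% of all genes) and 3 lower (5.66%, against 14.1%). The median log2 fold change of the tested members was 0.07, against -0.01 over all genes tested, and the median absolute log2 fold change was 0.0992 against 0.219. Members were the more abundant, with a median level of 230.8 CPM against 30.1 CPM, and absolute changes were not compared at matched levels. DESeq2 called 4 of 53 members (7.55%, against 8.36% of all genes), namely SNRPB2, HNRNPA0, SF3B14 and HNRNPUL1.

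SNRPB2 encodes the U2 snRNP protein B″, which binds a stem-loop of U2 RNA. It was at 51.4 and 45.5 CPM in the 24 h and 48 h controls and at 79.5 and 72.6 CPM in the matching FAT4 siRNA libraries. Both FAT4 siRNA libraries lay above both controls. The plain ratio was 1.55 at 24 h (95% counting interval 1.42 to 1.68) and 1.59 at 48 h (1.46 to 1.74). In the fit SNRPB2 rose (log2 fold change 0.65, SE 0.106, adjusted p = 3.68e-08, higher in both pairs). Its partner in the U2 snRNP, SNRPA1, which encodes protein A′, had 29.1, 27.3, 28.2 and 25.3 CPM in the same order and a log2 fold change of -0.08 (adjusted p = 0.707).

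SF3B14, now named SF3B6, encodes the p14 subunit of SF3B, which sits next to the branch point adenosine. It was at 67.4 and 73.0 CPM in the 24 h and 48 h controls and at 49.8 and 41.6 CPM in the matching FAT4 siRNA libraries. The FAT4 siRNA libraries were both below the controls, with the larger gap at 48 h. The ratio was 0.739 at 24 h (0.675 to 0.807) and 0.570 at 48 h (0.519 to 0.626). Over both times SF3B14 fell (log2 fold change -0.62, SE 0.108, adjusted p = 3.18e-07). The 8 other SF3A and SF3B genes were not called, and their log2 fold changes lay between -0.02 for SF3A1 and 0.14 for SF3A3. SF3B1, the scaffold of the complex and the subunit most often mutated in blood cancers, was at 533, 579, 608 and 579 CPM, with a log2 fold change of 0.10 (adjusted p = 0.459).

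HNRNPA0, a relative of HNRNPA1 that binds AU-rich elements, was at 332 and 321 CPM in the 24 h and 48 h controls and at 221 and 199 CPM in the matching FAT4 siRNA libraries. The groups did not overlap, and the FAT4 siRNA libraries were lower. The ratio was 0.664 at 24 h (0.637 to 0.692) and 0.619 at 48 h (0.593 to 0.646). HNRNPA0 fell (log2 fold change -0.64, SE 0.0900, adjusted p = 9.71e-11). HNRNPUL1, which resembles hnRNP U, was at 562, 518, 436 and 375 CPM in the same order. It was also lower in both FAT4 siRNA libraries and fell (log2 fold change -0.42, SE 0.0885, adjusted p = 4.64e-05).

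The 3 smaller rises were in genes of different parts of the machinery. HNRNPU, a scaffold protein of nuclear RNA, was at 1216 and 1037 CPM in the 24 h and 48 h controls and at 1509 and 1191 CPM in the matching FAT4 siRNA libraries. Each FAT4 siRNA library exceeded the control of its own time, but FAT4 siRNA 48 h lay below control 24 h. HNRNPU rose (log2 fold change 0.26, SE 0.0881, adjusted p = 0.0189). SRSF10, an SR protein that acts as a splicing repressor when dephosphorylated, was at 206 and 216 CPM in the controls and 254 and 247 CPM with the FAT4 siRNA. It rose (log2 fold change 0.25, SE 0.0902, adjusted p = 0.0274). U2AF1 was at 152 and 123 CPM in the 24 h and 48 h controls and at 176 and 149.6 CPM in the matching FAT4 siRNA libraries, and rose (log2 fold change 0.24, SE 0.0932, adjusted p = 0.0381). For SRSF10 the groups did not overlap, whereas for U2AF1 FAT4 siRNA 48 h lay just below control 24 h. DESeq2 did not call HNRNPU (adjusted p = 0.0875), SRSF10 (0.155) or U2AF1 (0.197).

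**Figure D2:**
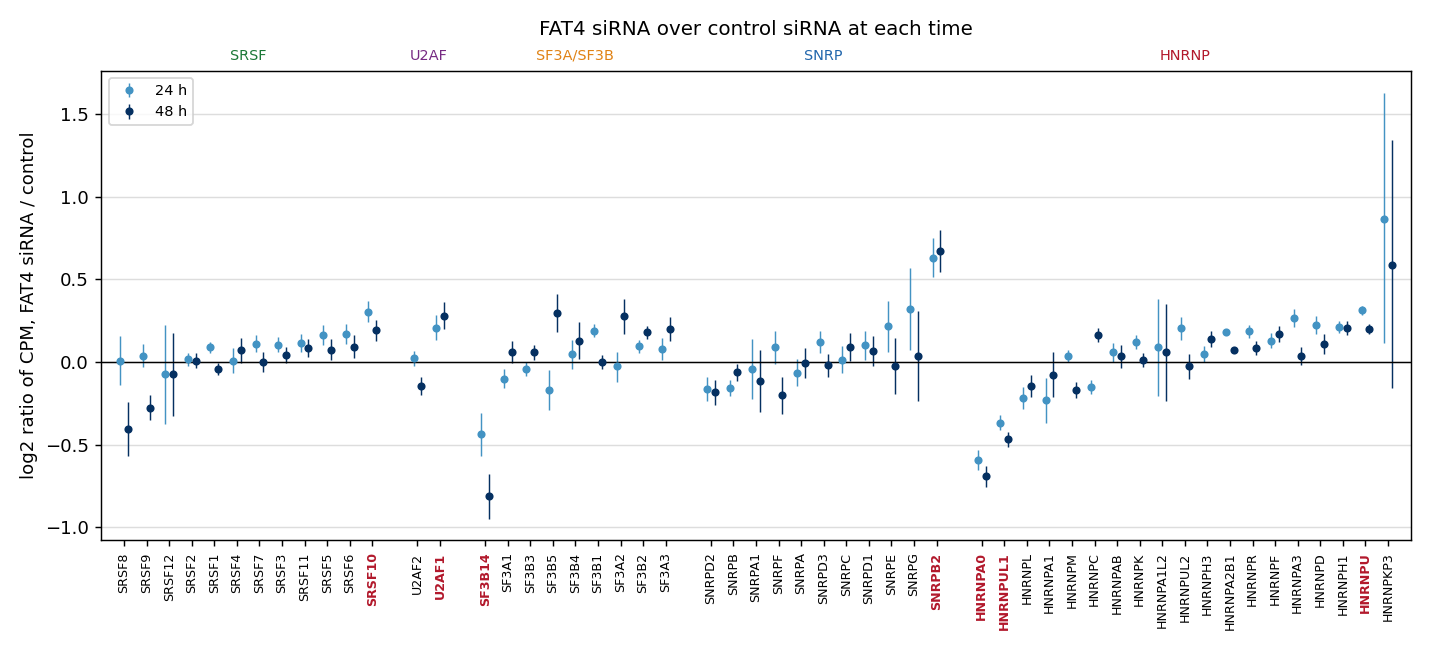
Log2 ratio of CPM, FAT4 siRNA over control, for each tested member at 24 h (light blue) and 48 h (dark blue); bars are exact 95% intervals for counting error only, and names in red bold passed the edgeR test over both times. SNRPB2 lies above and HNRNPA0, HNRNPUL1 and SF3B14 lie below 0 at both times, while most members stay near 0.

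Among SR proteins SRSF10 was the single call, 1 of 12 (8.33%, against 25.9% of all genes). SRSF1 was at 780.4, 703, 830 and 681 CPM, and SRSF2 at 574, 421, 581 and 423 CPM. Their log2 fold changes with the FAT4 siRNA were 0.02 (adjusted p = 0.883) and 0.01 (adjusted p = 0.934). The libraries of these genes separated by time rather than by siRNA. The 12 SRSF genes ranged from -0.19 for SRSF8 to 0.25 for SRSF10, with a median of 0.05. Of 11 SNRP genes tested, SNRPB2 alone was called (9.09%, against 25.9% of all genes). The other 10 lay between -0.17 for SNRPD2 and 0.18 for SNRPG. In the HNRNP family 1 of 19 rose (5.26%, against 11.9% of all genes) and 2 fell (10.5%, against 14.1%). HNRNPKP3 had the largest log2 fold change of that family, 0.72, from 29 to 35 counts per library, and did not pass (adjusted p = 0.109).

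The median over tested members of the mean level was 230.8 CPM, against 30.1 CPM over all genes tested. The counting interval of the siRNA ratio excluded 1 at 24 h for 27 members above and 10 below, and at 48 h for 21 above and 12 below, and held 1 for the rest. Over the 13712 genes tested, it excluded 1 at 24 h for 3352 above and 3745 below. At 48 h these were 3753 above and 3860 below. At both times alike, the counting interval lay above 1 for 14 members (26.4%, against 16.2% of all genes) and below 1 for 6 (11.3%, against 17.5%). These intervals hold no variation between cultures. They depend on depth, so a larger share is reached by abundant genes at the same fold change.

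The FAT4 siRNA ratios of all genes moved with 7-base words in the 3′ UTR, and the sites of the word marking lower genes are listed below for members. Words present in at least 100 genes were scored over 10112 genes, on the fold change after correction for GC content and length. The score was the mean of genes with the word less the mean of all genes searched, divided by its standard error. It grows with the number of genes, so common words can rank first on small differences. TTGGACT ranked first among words marking lower genes and AGCCTTA first among words marking higher genes, of 15659 words scored. The median corrected log2 fold change was -0.09 for genes with TTGGACT and 0.06 for genes with AGCCTTA, against -0.01 for all genes searched. The words were picked by the same fold changes, so their presence is a description and no support. TTGGACT, read on the transcript strand, occurred in the 3′ UTR of 12.4% of the genes searched and of 7 of the 52 members searched (13.5%). The sites, from GENCODE 29 transcripts and written 5′ to 3′ with the word in capitals, were:
SF3B14: attttcatTTGGACTaaatccca
HNRNPA0: taaggagtTTGGACTtagggtag
HNRNPA1: gcagagatTTGGACTttccctac
HNRNPR: ttctataaTTGGACTgaaggctc
SF3B3: ataccgacTTGGACTtgcggcac
SRSF3: tccccttgTTGGACTctgtactt
SRSF4: tcatatttTTGGACTtaacaaag

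The site in SF3B14 lay at base 20 of a 3′ UTR of 178 bases, counted from the first base after the stop codon. In HNRNPA0 it lay at base 5351 of 7498. SF3B14 and HNRNPA0 fell, as given above, but the other 5 genes with the word did not pass the test. Their uncorrected log2 fold changes were -0.15 for HNRNPA1, 0.01 for SF3B3, 0.04 for SRSF4, 0.07 for SRSF3 and 0.14 for HNRNPR. With correction for GC content and length, as in the word ranking, they were -0.25, 0.08, 0.05, -0.08 and -0.04, in this order. HNRNPUL1 fell and did not hold the word. AGCCTTA occurred in 6 of 52 members (11.5%, against 11.6% of the genes searched), namely HNRNPA0, HNRNPA1, HNRNPR, SNRPD1, SRSF2 and SRSF3, and none of these rose. SNRPB2, SRSF10, U2AF1 and HNRNPU, the 4 members that rose, did not hold it. HNRNPA0, HNRNPA1, HNRNPR and SRSF3 held both words.

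Calls for the siRNA were also taken with a correction for base composition, since members had a median transcript GC content of 45.0%, against 48.5% over all genes tested. SRSF genes were at 41.1% and U2AF genes at 53.6%. After a correction for GC content and length, 8 of 53 members were called (15.1%, against 20.4% of all genes), 4 higher and 4 lower. The median of the tested members turned from 0.07 to -0.02, so the small positive median flips with this correction. HNRNPA0, SF3B14, HNRNPUL1 and SNRPB2 were called with and without it, at corrected log2 fold changes of -0.71, -0.79, -0.33 and 0.42. HNRNPU (corrected 0.19), SRSF10 (0.02) and U2AF1 (0.15) were no longer called. HNRNPH1 (0.24), SF3A2 (0.42), SF3B2 (0.20) and SNRPF (-0.34) were called after the correction and not before it. HNRNPH1 was also called with DESeq2 size factors (adjusted p = 0.0479). SF3A2 had the highest GC content of the tested members, 66.6%, and SRSF10 one of the lowest, 36.2%.

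**Figure D3:**
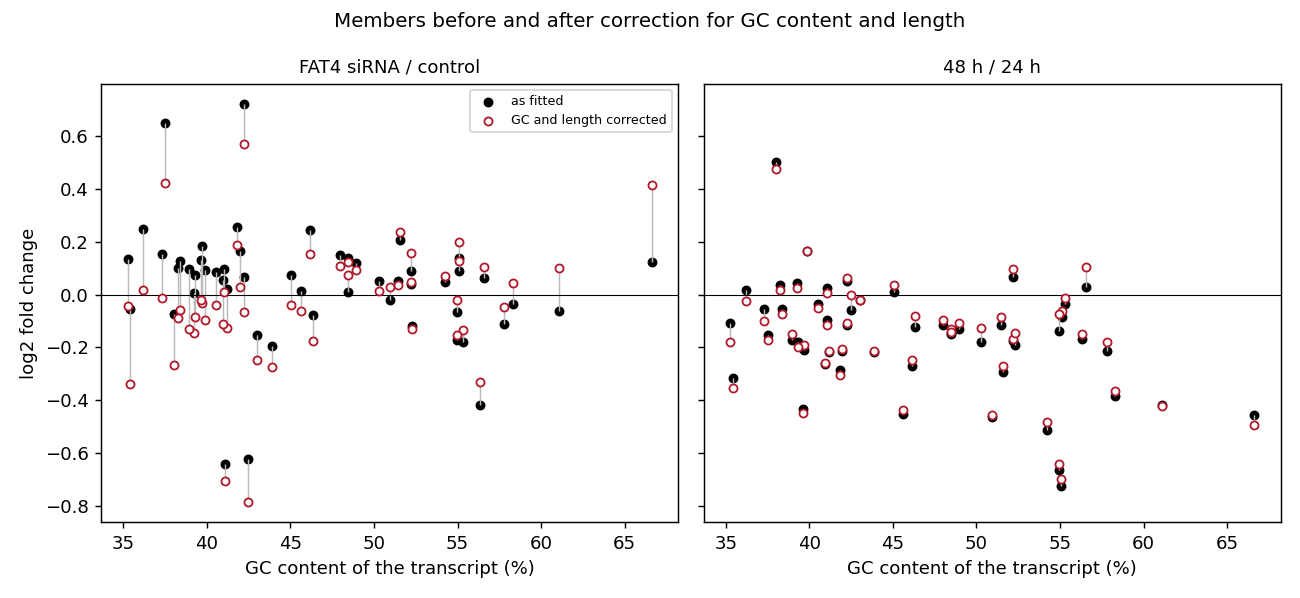
Log2 fold change of each tested member against the GC content of its transcript, for the siRNA comparison (left) and the time comparison (right); black points are the fit without and red open points the fit with correction for GC content and length, joined by a line. The correction moves SF3A2 at 66.6% GC up from 0.12 to 0.42 on the left, and changes the right panel little.

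The second comparison asked which members differed between 48 h and 24 h over both siRNAs. Most members had a lower level at 48 h. SF3B4, HNRNPM, HNRNPAB, SF3A1, SF3A2, SRSF2, SRSF6, U2AF2, SNRPA, SNRPF, HNRNPH1, HNRNPU, U2AF1 and SRSF7 fell, and SRSF12 rose. The edgeR fit called 15 of 53 members (28.3%, against 26.6% of all genes), so the share called was near the background. By direction it called 14 lower (26.4%, against 12.8% of all genes) and 1 higher (1.89%, against 13.8%). The median log2 fold change was -0.15, against 0.01 over all genes tested, and 43 of 53 values were negative, against 6694 of 13712. DESeq2 called 11 members lower (20.8%, against 4.51% of all genes), and the fit with GC and length correction 17 (32.1%, against 14.1%). The log2 ratio of 48 h to 24 h was negative under both siRNAs, which are separate pairs of libraries, for 40 of 53 members and for 4843 of 13712 genes. The counting interval lay below 1 under both siRNAs for 29 members (54.7%, against 17.9% of all genes) and above 1 for 2 (3.77%, against 15.4%). As with the siRNA, these intervals depend on depth, and the median level was 230.8 CPM for members, against 30.1 CPM for all genes tested.

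**Figure D4:**
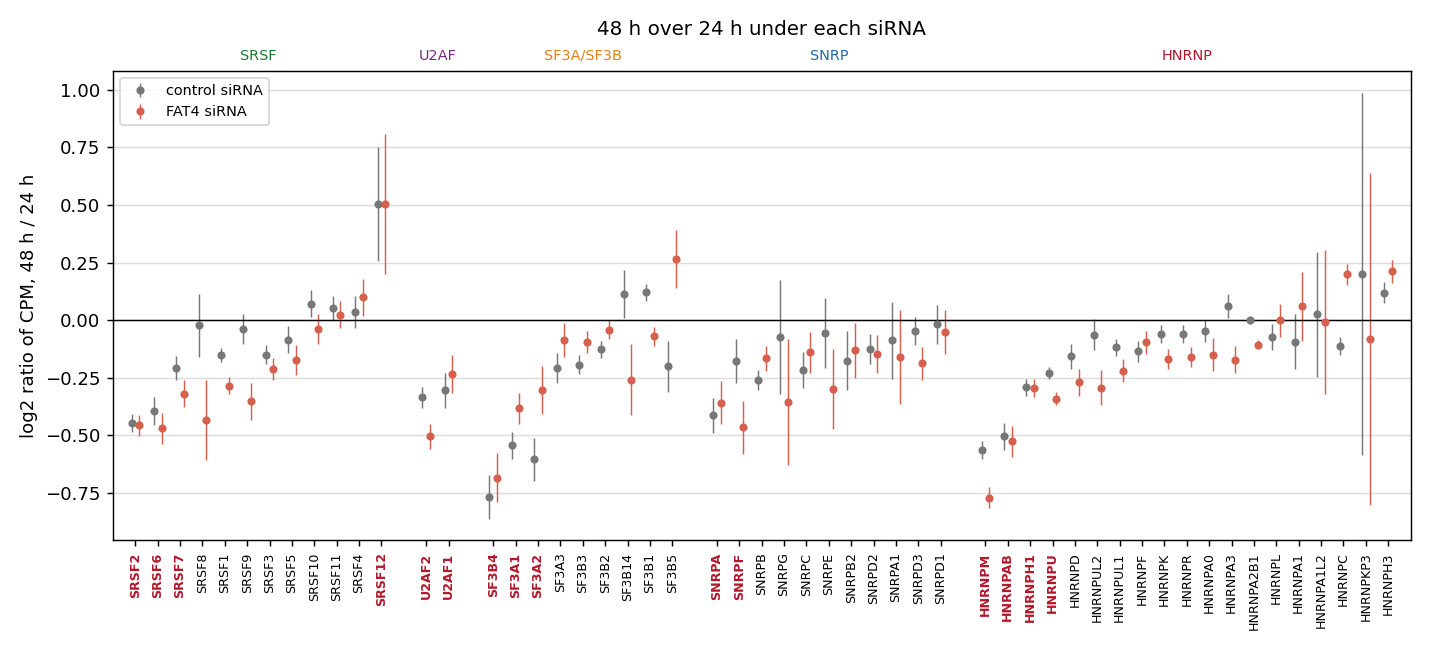
Log2 ratio of CPM, 48 h over 24 h, for each tested member under control siRNA (grey) and FAT4 siRNA (red); bars are exact 95% intervals for counting error only, and names in red bold passed the edgeR test over both siRNAs. Points lie below 0 under both siRNAs for 40 of 53 members, and SRSF12 is the one called above 0.

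Of the 9 SF3A and SF3B genes, SF3B4, SF3A1 and SF3A2 fell (33.3%, against 12.8% of all genes). SF3B4, which encodes the SF3B subunit that contacts RNA upstream of the branch point, was at 119.5 and 123.5 CPM at 24 h and 70.2 and 76.8 CPM at 48 h in control and FAT4 siRNA. Both 48 h libraries were far below both 24 h libraries. SF3B4 fell (log2 fold change -0.73, SE 0.0974, adjusted p = 8.57e-12), the largest fall among tested members. SF3A1, a subunit of SF3A, was at 287 and 268 CPM at 24 h and 197 and 205 CPM at 48 h (control, then FAT4 siRNA). It fell (log2 fold change -0.46, SE 0.0902, adjusted p = 6.73e-06). SF3A2 was at 112 and 109.6 CPM at 24 h and 73.4 and 88.9 CPM at 48 h, and fell (log2 fold change -0.45, SE 0.0974, adjusted p = 5.44e-05). The groups of both SF3A genes were also separate, with the smaller gap under the FAT4 siRNA. The remaining subunits were not called, with log2 fold changes from -0.15 for SF3A3 to 0.03 for SF3B5. SF3B1 had 0.03 (adjusted p = 0.866).

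Both subunits of U2AF fell at 48 h by edgeR, and U2AF2 alone by DESeq2. U2AF2 was at 419.8 and 427 CPM at 24 h and 333 and 301 CPM at 48 h in control and FAT4 siRNA. It fell (log2 fold change -0.42, SE 0.0889, adjusted p = 4.79e-05), with no overlap between the times. U2AF1, whose levels are given above, fell (log2 fold change -0.27, SE 0.0932, adjusted p = 0.0195), which DESeq2 did not call (adjusted p = 0.139). Its FAT4 siRNA 48 h library, at 149.6 CPM, lay just below control 24 h, at 152 CPM, so the times did not overlap either.

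Of 12 SR genes, SRSF2, SRSF6 and SRSF7 fell (25%, against 12.8% of all genes) and SRSF12 rose (8.33%, against 13.8%). SRSF2, known as SC35 and a marker of nuclear speckles, fell (log2 fold change -0.45, SE 0.0884, adjusted p = 7.59e-06), with a ratio of 0.733 (0.713 to 0.754) under control and 0.729 (0.706 to 0.753) under FAT4 siRNA. SRSF6 was at 238 and 268 CPM at 24 h and 181 and 193 CPM at 48 h, and fell (log2 fold change -0.43, SE 0.0906, adjusted p = 3.63e-05). SRSF7 was at 316 and 341 CPM at 24 h and at 273.5 CPM in both 48 h libraries, and fell (log2 fold change -0.26, SE 0.0893, adjusted p = 0.0168), which DESeq2 did not call (adjusted p = 0.110). In all 3 genes the 48 h libraries lay below the 24 h libraries. SRSF12, a low-abundance SR protein, was at 10.8 and 10.3 CPM at 24 h and 15.3 and 14.6 CPM at 48 h. It rose (log2 fold change 0.50, SE 0.162, adjusted p = 0.0111), and DESeq2 did not call it (adjusted p = 0.258). SRSF3, SRSF5 and SRSF1 had log2 fold changes of -0.18, -0.13 and -0.22 and did not pass, and SRSF1 was just over the threshold (adjusted p = 0.0507).

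Of the HNRNP family, 4 of 19 fell at 48 h (21.05%, against 12.8% of all genes), with a median of -0.11. HNRNPM, which binds GU-rich RNA and promotes exon skipping, was at 635 and 651 CPM at 24 h and 429 and 382 CPM at 48 h in control and FAT4 siRNA. It fell (log2 fold change -0.67, SE 0.0887, adjusted p = 5.78e-12). HNRNPAB was at 267.5 and 278 CPM at 24 h and 189 and 193 CPM at 48 h, and fell (log2 fold change -0.51, SE 0.0904, adjusted p = 4.26e-07). For both genes the 24 h and 48 h libraries were well apart. HNRNPH1, which binds G-rich runs, fell (log2 fold change -0.29, SE 0.0882, adjusted p = 0.00619), and HNRNPU fell (log2 fold change -0.29, SE 0.0882, adjusted p = 0.00757). In the edgeR fit HNRNPU therefore rose with the FAT4 siRNA and fell with time, as U2AF1 did. The most abundant member, HNRNPA2B1, was at 2564 and 2905 CPM at 24 h and 2562 and 2697 CPM at 48 h, and had a log2 fold change of -0.05 (adjusted p = 0.697). HNRNPH3 had the highest value of the family, 0.17 (adjusted p = 0.157).

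SNRPA, the U1 snRNP protein A, and SNRPF, a subunit of the Sm ring, fell among the 11 SNRP genes (18.2%, against 12.8% of all genes). SNRPA was at 151 and 144 CPM at 24 h and 113 and 113 CPM at 48 h in control and FAT4 siRNA, with no overlap, and fell (log2 fold change -0.39, SE 0.0945, adjusted p = 0.000521). SNRPF was at 91.1 and 96.9 CPM at 24 h and 80.6 and 70.2 CPM at 48 h, and fell (log2 fold change -0.32, SE 0.0991, adjusted p = 0.00836), which DESeq2 did not call (adjusted p = 0.142). All 11 SNRP genes had negative log2 fold changes, from -0.39 to -0.03, against 6694 of 13712 genes. The test was not passed by 9 of the 11. The Sm genes SNRPD1, SNRPD2 and SNRPD3 had -0.03, -0.14 and -0.12.

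Both terms are shown together for members and all genes. HNRNPU and U2AF1 were the 2 members called in both comparisons by the edgeR fit. Neither was called for the siRNA by DESeq2 or with GC and length correction. With that correction HNRNPH1, SF3A2 and SNRPF were the members called in both comparisons. The members that moved with the siRNA by more than 0.4 on the log2 scale and passed, SNRPB2, SF3B14, HNRNPA0 and HNRNPUL1, had time values of -0.15, -0.06, -0.10 and -0.17 and were not called for time.

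**Figure D5:**
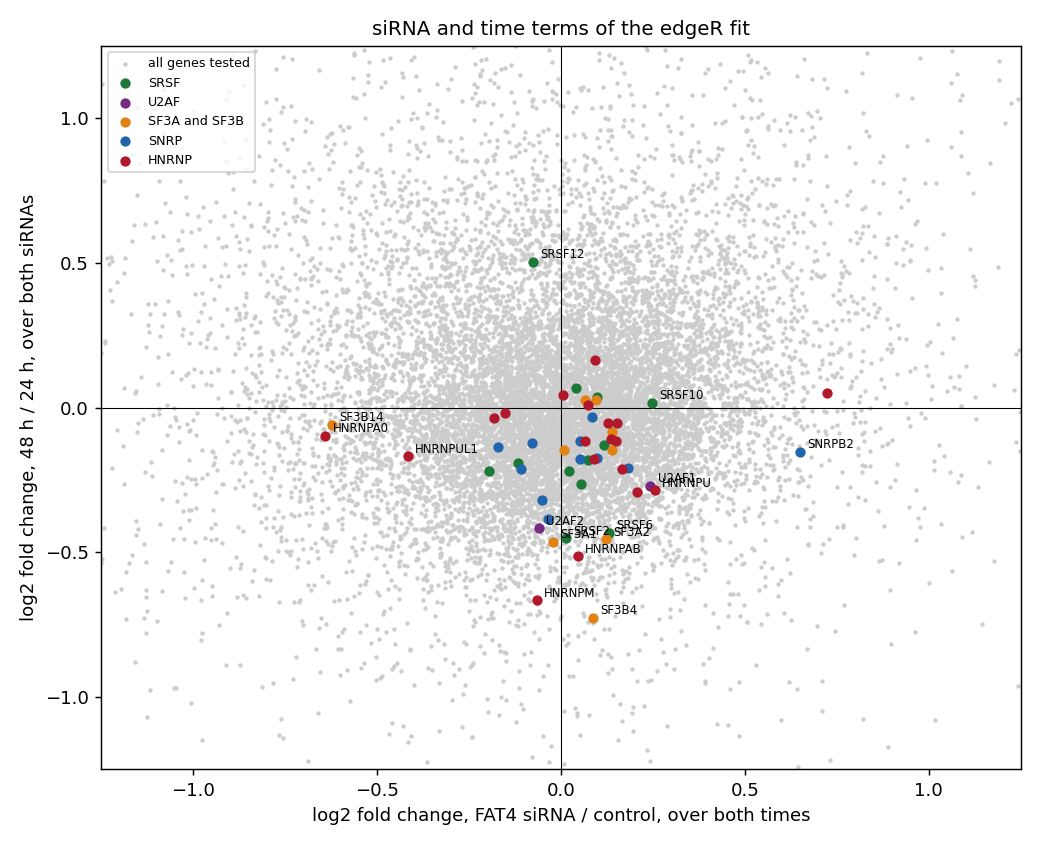
Log2 fold change of the FAT4 siRNA (horizontal axis) against that of time (vertical axis) from the edgeR fit, with members coloured by family over the genes tested that lie within the axes (grey). SF3B4, HNRNPM and HNRNPAB lie low on the vertical axis with siRNA values near 0, and SNRPB2, SF3B14 and HNRNPA0 lie to the sides.

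Among tested members the siRNA ratio differed most between the times for SF3B5, SRSF8, SF3B14 and SRSF9. SF3B5, the smallest subunit of SF3B, was at 69.8 and 60.8 CPM in the 24 h and 48 h controls and at 62.1 and 74.7 CPM in the matching FAT4 siRNA libraries, so the FAT4 siRNA library was the lower one at 24 h and the higher one at 48 h. SRSF8 was at 42.1 and 41.4 CPM in the controls, 42.3 under FAT4 siRNA at 24 h and 31.3 at 48 h. SRSF9 was likewise at 189.6 and 185 CPM in the controls, 195 under FAT4 siRNA at 24 h and 153 at 48 h. In both SR genes 1 library, FAT4 siRNA 48 h, stood below the other 3. These differences were not tested, because 1 library for each siRNA and time leaves no residual for an interaction.

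Other genes of the splicing machinery were read from a list of 107 genes outside the symbol rule, of which 105 were in the files and 103 were tested. With the FAT4 siRNA 14 rose and 6 fell (19.4% called, against 25.9% of all genes), with a median of 0.06. MBNL1, a muscleblind splicing regulator, was at 122, 109.4, 256 and 212 CPM and rose (log2 fold change 1.01, SE 0.0930, adjusted p = 1.15e-24). The STAR protein QKI rose by 0.74, MBNL3 by 0.52 and the paraspeckle protein PSPC1 by 0.40. SNRNP25 of the minor spliceosome fell by 0.64, the paraspeckle protein NONO by 0.63 and RBM10 by 0.35, of which RBM10 was called neither by DESeq2 (adjusted p = 0.0664) nor with GC and length correction (adjusted p = 0.101). DESeq2 called 7 of the list higher and 3 lower (9.71%, against 8.36% of all genes). The fit with GC and length correction called 9 and 3 (11.65%, against 20.4% of all genes).

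With time, 28 of the 103 genes fell (27.2%, against 12.8% of all genes) and 2 rose, with a median of -0.15. DESeq2 called 14 lower (13.6%, against 4.51% of all genes) and 1 higher. PRPF8, the scaffold of the spliceosome's catalytic core, was at 955 and 876 CPM at 24 h and 734 and 574 CPM at 48 h in control and FAT4 siRNA, and fell (log2 fold change -0.49, SE 0.0883, adjusted p = 6.92e-07). RBM22 fell by 0.46, SNRNP25 by 0.42 and the U5 GTPase EFTUD2 by 0.41, of which DESeq2 did not call SNRNP25 (adjusted p = 0.143). CIRBP, an RNA-binding protein induced by cold, rose by 0.45 and LUC7L3 by 0.24. LUC7L3 was not called by DESeq2 (adjusted p = 0.211) or with GC and length correction (adjusted p = 0.0559). Among PRP proteins and helicases 14 of 33 fell (42.4%, against 12.8% of all genes), by edgeR the largest share among the parts of the list. DESeq2 called 7 of the 33 lower (21.2%, against 4.51%). In the other parts, 3 of 8 snRNP proteins, 5 of 15 hnRNP-like and FET proteins and 5 of 33 splicing regulators fell by edgeR. LSm proteins had 1 of 6 and SR protein kinases 0 of 8.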

How the data were processed

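Members and gene lists were chosen with earlier results of these data known. TRIzol RNA went into TruSeq stranded mRNA libraries, per the labels' protocols. The authors deposited whole-number read counts per gene, 1 file per library. HTSeq, TopHat2, SAMtools, CASAVA 1.8.2 and build hg19 stand in the submitters' processing notes without order or settings. Annotation, counting mode and strand setting are not given in the sources used, so overlapping genes and near-identical copies are uncertain. Left out were 5 counter entries per file that name no gene: reads outside genes made up 19.5% to 20.5% of uniquely placed reads and reads on more than 1 gene 0.772% to 0.804%.

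EdgeR 4.0.16 (R 4.3.3) used TMM scaling and filterByExpr (minimum count 10, total 15), which kept 13712 genes. Its quasi-likelihood test was fitted to all 4 libraries with additive siRNA and time, leaving 1 residual degree of freedom and a dispersion trend shared by all genes (common biological coefficient of variation 0.0737). Tests were two-sided, with Benjamini-Hochberg adjustment over all genes at 0.05. SE is the absolute log2 fold change over the root of F. DESeq2 1.42.0 was an alternative. Log2 ratios of single pairs used CPM plus 1, and plain ratios have exact Clopper-Pearson intervals (95%), for counting error only. The smallest countable level, 3 counts, was 0.134 to 0.203 CPM.

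Length, GC content and 3′ UTRs came from the longest coding transcript in GENCODE 29 (95.4% of tested genes and all 53 tested members). Its build is not hg19, and positions in the genome are therefore left out. GC content and length entered the correction as natural splines (5 and 4 degrees of freedom). Words of 7 bases were searched in 3′ UTRs of 50 bases or more, among genes averaging 5 CPM or more. Any member could be named; called members came first, then the most abundant per length, then the 4 with the largest difference between times, and up to 4 genes per direction of the wider list. 1 gene that this rule names is not reported here. The fit was tested on simulated data.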

Additional observations from a re-analysis of the deposited data

Results flagged for a closer look

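For 4 members the FAT4 siRNA ratio went in opposite directions at 24 h and 48 h, with both counting intervals off 1. The ratios at 24 h and 48 h were 0.902 and 1.12 for HNRNPC, 1.03 and 0.889 for HNRNPM, 0.889 and 1.23 for SF3B5, and 1.06 and 0.970 for SRSF1. For 5 members the ratio of 48 h to 24 h went in opposite directions under the control and the FAT4 siRNA. These ratios were 1.04 and 0.888 for HNRNPA3, 0.926 and 1.15 for HNRNPC, 1.09 and 0.952 for SF3B1, 1.08 and 0.836 for SF3B14, and 0.870 and 1.20 for SF3B5. HNRNPC and SF3B5 appear in both sets, which are built from the same 4 libraries. None of these differences was tested, and the intervals cover counting error only. Their width depends on depth, and members were the more abundant (median 230.8 CPM, against 30.1 CPM for all genes tested). The matching share of all genes, with both intervals off 1, is not given here. Without regard to intervals, the siRNA log2 ratio kept its direction from 24 h to 48 h in 37 of 53 members and 9945 of 13712 genes. The time ratio kept its direction across siRNAs in 44 members and 10030 genes.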

How the results depend on the processing

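Leaving the other term out of the fit left 0 members called for the siRNA, higher or lower (4 at an unadjusted p under 0.05, against 10 as reported), 0 for time, higher or lower (10 at an unadjusted p under 0.05), and 0 genes of the wider list for the siRNA in either direction (10 at an unadjusted p under 0.05), all by edgeR. DESeq2 called 1 member higher with the FAT4 siRNA in place of 4 and 0 higher at 48 h in place of 1 (17 members at an unadjusted p under 0.05 in either direction), and 7 and 3 genes of the wider list in place of 14 and 6. With GC and length correction the wider list had 9 higher and 3 lower. For time, in alternatives chosen after seeing the data, the wider list's 2 higher and 28 lower became 1 and 14 with DESeq2, 1 and 30 without a filter, and 0 and 0 by edgeR without the siRNA term (14 at an unadjusted p under 0.05). The cause of these differences was not tested. The member counts with DESeq2 size factors, without a filter, and among genes of at least 5 CPM stayed within 1.5 times of those reported. HNRNPA0, HNRNPUL1, SF3B14 and SNRPB2 were called for the siRNA in all of these settings apart from the fit without time. The 11 members that DESeq2 called for time were all among the 15, and it lost SNRPF, SRSF12, SRSF7 and U2AF1. With GC and length correction all 15 were called again, together with HNRNPD, SRSF1 and SRSF3. A pseudocount of 0.25 moved none of the 106 ratios at single times beyond counting error, and total gene counts moved 1. The fit as reported compares siRNAs within each time and times within each siRNA. No paired analysis by replicate number was possible because the labels give none. No library could be left out, since 3 libraries leave no residual for the fit.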
